A study of Homo sapiens with 4 samples.

Results

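The transcripts described here are the long noncoding and microRNA host transcripts of Jurkat cells, a cultured line derived from a human T cell leukaemia. They were chosen by name and by signal from an oligonucleotide array study. A probe set, the group of short probes that gives 1 signal, was eligible where its only gene symbol starts with LINC or SNHG, starts with MIR and ends with HG, ends in -AS1, -AS2 or -AS3, or is MALAT1, NEAT1 or GAS5. Of 2251 such probe sets, for 1667 symbols, 249 reached a signal of 200 on at least 1 of the 4 arrays. Keeping the probe set with the highest mean per symbol left 188 transcripts, of 9791 named genes that reach 200 in the same way and 19775 named genes in all. They were 128 antisense transcripts, 50 long intergenic transcripts (LINC), 5 hosts of small nucleolar RNAs, 4 microRNA hosts and MALAT1.

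The study compared 4 groups of Jurkat cells, each measured once. The shIKKE line carries a short hairpin RNA against IKKε (gene IKBKE), a kinase of the IκB kinase family and a relative of TBK1 in innate immune signalling. The control line carries a control hairpin per the series' design text, or a vector per the titles. The labels give all 4 samples the same treatment text, and the stimulated ones were taken from their titles. The groups were the shIKKE line with PMA and ionomycin, the shIKKE line with solvent, the control line with PMA and ionomycin, and the control line with solvent. Stimulation was with 10 ng/ml PMA, which activates protein kinase C, and 0.5 uM ionomycin, which lets calcium into the cell, and lasted 3 h. All 4 RNA samples came from the same cell type, and each knockdown or control state is 1 line. Whether the samples came from separate cultures is not stated in the labels. With 1 array per group there is no error between replicates, so differences between arrays are given as values without a test.

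Long noncoding RNAs are transcribed, capped and often spliced like messenger RNAs but are not translated into long proteins. MALAT1 is an abundant RNA of nuclear speckles. Hosts of small nucleolar RNAs and of microRNAs carry those small RNAs inside the transcript, from which they are cut during splicing or by the enzyme Drosha. Many antisense transcripts start beside the promoter of a protein-coding gene on the other strand. In T cells, PMA and ionomycin together bypass the receptor and activate AP-1, NF-κB, NFAT and EGR factors within hours. The arrays measured the host transcripts and not the mature small RNAs.

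The 4 microRNA hosts carry microRNAs whose mature sequences show what each host encodes. They are from RefSeq (GRCh38.p14), written 5′ to 3′ with the seed, bases 2 to 8, in capitals.
miR-570-3p (chr3:195699460-195699481, plus strand): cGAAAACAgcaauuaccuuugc
miR-570-5p (chr3:195699425-195699446, plus strand): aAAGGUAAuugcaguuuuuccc
miR-210-3p (chr11:568112-568133, minus strand): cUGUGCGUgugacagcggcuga
miR-210-5p (chr11:568150-568171, minus strand): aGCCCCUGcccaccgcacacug
miR-550a-3p (chr7:29680748-29680769, minus strand): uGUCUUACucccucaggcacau
miR-550a-3-5p (chr7:29680789-29680808, minus strand): aGUGCCUGagggaguaagag
miR-924 (chr18:39622153-39622172, minus strand): aGAGUCUUgugaugucuugc
No seed is shared between these 7 mature microRNAs. The seed of miR-570-5p is held by 4 of the 2370 mature microRNAs of the table, that of miR-550a-3-5p by 3 and that of miR-550a-3p by 2. The seeds of the remaining 4 were each found once.

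Promoter windows, from 250 bases before to 50 after the start, were on hand for 148 of the 188 transcripts. They covered 11 of the 22 transcripts that were at least 2-fold higher with stimulation in both lines. Of those 11, 3 are shown for the motifs of stimulation-responsive factors in them, and the MIR210HG window is shown because that host had the lowest log2 change of the 188 with stimulation, in the control line. Capitals mark the motif matches. GABPB1-AS1 holds an AP-1 motif (TGANTCA). FAM131B-AS2 holds, in order, an NF-κB motif, an EGR motif (GCGNGGGCG) and an AP-1 motif. EMC3-AS1 holds a pair of CRE motifs (TGACGNCA) and an NFAT motif (GGAAAA). MIR210HG holds an EGR motif and, after it, the core of a hypoxia response element (ACGTG), a motif added after the values were seen.
GABPB1-AS1 (chr15:50353924-50354223, plus strand): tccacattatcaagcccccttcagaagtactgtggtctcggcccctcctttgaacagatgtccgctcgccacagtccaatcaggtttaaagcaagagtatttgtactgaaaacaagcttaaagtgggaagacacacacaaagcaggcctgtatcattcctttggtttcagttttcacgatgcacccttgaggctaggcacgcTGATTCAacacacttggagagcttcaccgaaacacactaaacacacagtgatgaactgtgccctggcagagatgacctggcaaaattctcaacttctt
FAM131B-AS2 (chr7:143380976-143381275, minus strand): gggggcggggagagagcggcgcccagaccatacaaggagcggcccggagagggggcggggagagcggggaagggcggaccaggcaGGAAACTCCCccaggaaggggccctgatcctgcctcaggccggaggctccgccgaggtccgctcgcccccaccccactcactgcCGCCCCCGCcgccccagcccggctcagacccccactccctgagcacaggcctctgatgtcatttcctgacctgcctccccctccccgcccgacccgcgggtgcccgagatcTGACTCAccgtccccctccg
EMC3-AS1 (chr3:9986643-9986942, plus strand): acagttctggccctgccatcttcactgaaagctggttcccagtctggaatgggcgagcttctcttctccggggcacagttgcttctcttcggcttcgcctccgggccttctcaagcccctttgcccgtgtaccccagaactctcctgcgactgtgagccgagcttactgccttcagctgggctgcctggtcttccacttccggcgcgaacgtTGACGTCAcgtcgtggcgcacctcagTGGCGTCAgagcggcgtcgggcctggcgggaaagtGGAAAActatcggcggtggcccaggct
MIR210HG (chr11:568408-568707, minus strand): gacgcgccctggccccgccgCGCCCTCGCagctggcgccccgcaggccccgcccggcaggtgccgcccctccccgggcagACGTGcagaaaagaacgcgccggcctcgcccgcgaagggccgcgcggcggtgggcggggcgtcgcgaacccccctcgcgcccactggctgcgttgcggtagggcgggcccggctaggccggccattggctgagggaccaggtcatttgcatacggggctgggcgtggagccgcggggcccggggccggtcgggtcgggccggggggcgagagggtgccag
Both strands were searched, and a match is a description of letters, not a shown binding site. In EMC3-AS1 the first CRE motif overlaps another match to ACGTG, which is not marked. AP-1 matches were in 2 of the 11 windows (18.2%), in 5.41% of the 148 windows and in 7.76% of all 27305 windows of the table. CRE matches were in 1 of 11 (9.09%), 4.05% of the 148 and 3.62% of all. EGR matches were in 1 of 11 (9.09%), 13.5% of the 148 and 9.28% of all. NFAT matches were in 3 of 11 (27.3%), 16.2% of the 148 and 24.3% of all. NF-κB matches were in 2 of 11 (18.2%), 27.0% of the 148 and 25.1% of all. ACGTG was in 4 of 11 (36.4%), 24.3% of the 148 and 21.6% of all. No test was made of these shares, which rest on 11 windows. Among the 11, the windows of RUSC1-AS1, IDI2-AS1, LINC01355, LINC01138 and YWHAH-AS1 held no AP-1, CRE, EGR, NFAT or NF-κB match. Those of WARS2-AS1 and LINC00597 held NFAT and that of LINC02591 held NF-κB, and they are not shown.

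Start sites of the small nucleolar RNA hosts are shown because transcripts of this kind often begin with a terminal oligopyrimidine tract, a C followed by a run of C or T that ties translation and stability to growth signals. A tract of 6 bases stood at the RefSeq start of SNHG32 and of SNHG19. It is in capitals here, after 20 bases of upstream sequence (GRCh38.p14).
SNHG32 (chr6:31834896-31834945, plus strand): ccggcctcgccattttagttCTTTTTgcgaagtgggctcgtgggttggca
SNHG19 (chr16:2155329-2155378, minus strand): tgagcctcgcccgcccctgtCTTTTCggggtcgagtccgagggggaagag
The RefSeq starts of SNHG17, SNHG33 and GAS5 did not open with such a tract, which says nothing of other starts of these genes. A tract stood in 6 of the 148 windows (4.05%) and in 4.04% of all 27305.

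All 10 T cell markers (CD3D, CD3E, CD3G, CD247, CD2, CD5, CD7, LCK, ZAP70, LAT) reached 200. Their signals summed to 69909 and 75261 in the shIKKE line with stimulation and solvent and to 76536 and 72334 in the control line. Of the 10, CD2 and LAT passed 2-fold in a comparison. CD2 read 353 and 500.3 in the shIKKE line with stimulation and solvent, and 760 and 1976 in the control line. LAT read 6522 and 4102 in the shIKKE line with stimulation and solvent, and 10071 and 3713 in the control line. Of the other markers 1 of 5 B cell genes (CD79A), 0 of 5 myeloid and 0 of 5 erythroid and epithelial genes reached 200. IKBKE read 248 in the shIKKE line against 520 in the control line with stimulation (log2 -1.03), and 180.2 in the shIKKE line against 340 in the control line with solvent (log2 -0.87). A second IKBKE probe set read 279.8 in the shIKKE line against 311 in the control line with stimulation (log2 -0.15) and 287 in the shIKKE line against 218 in the control line with solvent (log2 0.38), which with solvent is the opposite direction. The solvent arrays differed in 2 early response genes. EGR1 read 1035 in the shIKKE line and 9953 in the control line, and CD69 read 428 in the shIKKE line and 1425 in the control line. The part of this in the differences of the 188 transcripts was not tested. In bulk RNA, fewer cells with a transcript and less of it per cell cannot be told apart.

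The 188 transcripts were dim beside other genes. Their median mean signal was 358, against 1203 for the 9791 genes, and 86 had a highest signal between 200 and 400. The signal rule used the same arrays that are compared, so a transcript that reached 200 on only some arrays was bound to differ between them to some degree. There were 104 that reached 200 on all 4. Just inside the limit were MIR924HG (200.2), ZNF687-AS1 (200.3) and CKMT2-AS1 (202), and just outside LINC00324 (199.7), LINC00685 (198.7) and MIR1915HG (197.9). Within 10% of the limit lay 20 symbols on each side. The brightest was MALAT1, followed by OIP5-AS1 and FGD5-AS1, named here for their brightness after their values were seen. OIP5-AS1, an RNA called Cyrano in zebrafish, read 4673 with stimulation and 6081 with solvent in the shIKKE line (log2 -0.38), and 4885 with stimulation and 5912 with solvent in the control line (log2 -0.27). FGD5-AS1 read 5320.1 with stimulation and 4785 with solvent in the shIKKE line (log2 0.15), and 5559.7 with stimulation and 5489 with solvent in the control line (log2 0.02). Both transcripts lay within 2-fold throughout. Log2 values throughout were taken after adding 14.1 to each signal, so that changes of dim transcripts come out smaller.

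With stimulation, 30 transcripts in the shIKKE line were at least 2-fold higher (log2 of 1), against 5.38% of the 9791 genes, and 10 were at least 2-fold lower, against 1.44%. In the control line 34 were higher, against 5.69% of genes, and 19 lower, against 4.81%. As shares of the 188 these were 15.96% and 5.32% in the shIKKE line and 18.09% and 10.11% in the control line. The median log2 change was -0.01 in the shIKKE line and -0.09 in the control line, and over all genes -0.09 in the shIKKE line and -0.10 in the control line. Dim genes passed 2-fold more often, and of the 1404 genes with a highest signal between 200 and 400, 11.68% were higher with stimulation than with solvent in the shIKKE line. Among the 51 transcripts that reached 1000 the shares were 9.80% higher and 9.80% lower in the shIKKE line, against 3.72% and 0.99% of genes as bright. In the control line they were 15.69% and 11.76%, against 4.54% and 3.74%. The split between higher and lower depended on the scaling between arrays. In the shIKKE line 75.0% of the 2-fold differences were higher, 57.9% after quantile normalization (22 higher, 16 lower) and 61.5% after cyclic loess (24 higher, 15 lower).

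**Figure D1:**
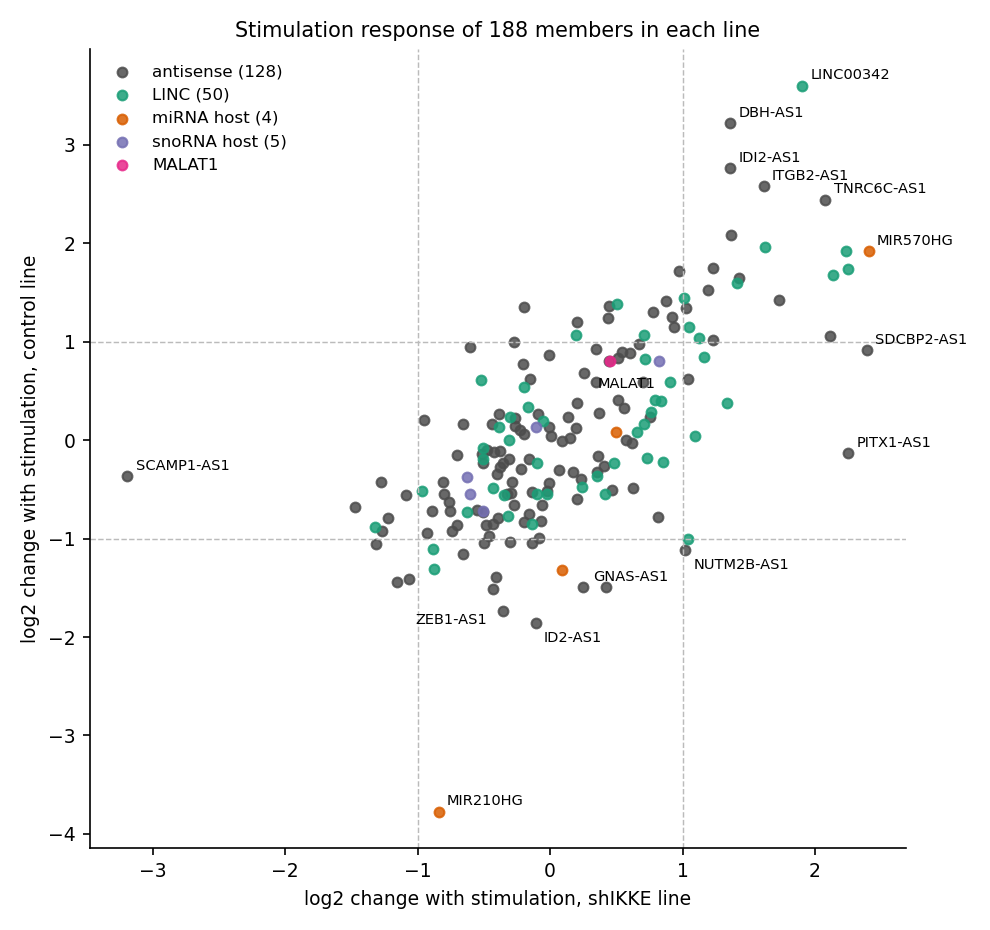
Each point is 1 of the 188 transcripts, with its log2 change with stimulation in the shIKKE line across and in the control line upward. Dashed lines mark 2-fold. The 22 points at the upper right were higher in both lines, and MIR210HG and SCAMP1-AS1 lie far out in 1 line each.

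In both lines 22 transcripts were at least 2-fold higher, against 3.02% of genes, and 3 were at least 2-fold lower, against 0.664%. The 22 were 73.33% of the 30 in the shIKKE line and 64.71% of the 34 in the control line. A 2-fold change in both lines makes it likely that both stimulated values lie on 1 side of both solvent values. Such separation is given below as description, and the share of all genes with it was not counted. LINC00342 read 1539 with stimulation and 401 with solvent in the shIKKE line (log2 1.90), and 994 with stimulation and 68.8 with solvent in the control line (log2 3.60). Its high solvent value in the shIKKE line lay between the solvent value of the control line and both stimulated values. By its other 2 probe sets at 200 the changes were 1.12 and 1.17 in the shIKKE line and 1.49 and 2.25 in the control line.

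ITGB2-AS1, on the strand opposite the integrin β2 chain gene, read 1528 with stimulation and 490.2 with solvent in the shIKKE line (log2 1.61), and 2147 with stimulation and 348 with solvent in the control line (log2 2.58). ITGB2 itself lay within 2-fold, at 2062 and 1502 in the stimulated and solvent shIKKE line, and 2142 and 1919 in the stimulated and solvent control line. Both stimulated values of ITGB2-AS1 lay above both solvent values, and a second probe set gave log2 1.19 in the shIKKE line and 2.45 in the control line. DBH-AS1, antisense to the gene of the enzyme that makes noradrenaline, read 644 stimulated against 242 with solvent in the shIKKE line, and 1765 stimulated against 177 with solvent in the control line (log2 1.36 in the shIKKE line and 3.22 in the control line). Its stimulated value was thus lower in the shIKKE line than in the control line by log2 -1.44. IDI2-AS1 read 338 with stimulation and 123 with solvent in the shIKKE line (log2 1.36), and 366 with stimulation and 41.8 with solvent in the control line (log2 2.77). Its stimulated values lay close together and its solvent values apart.

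GABPB1-AS1, opposite the gene of a subunit of the ETS factor GABP, read 2249 with stimulation and 826 with solvent in the shIKKE line (log2 1.43), and 2241 with stimulation and 704 with solvent in the control line (log2 1.65). Its promoter window is the one printed with a single AP-1 match. Its 4 other probe sets at 200 ranged from log2 0.08 to 0.92 in the shIKKE line and from 0.66 to 1.33 in the control line, all above 0. TNRC6C-AS1, antisense to the gene of a protein of the microRNA silencing complex, read 662 stimulated against 146 with solvent in the shIKKE line, and 763 stimulated against 129 with solvent in the control line (log2 2.08 in the shIKKE line and 2.44 in the control line). Its other 2 probe sets gave 2.81 and 3.57 in the shIKKE line and 3.50 and 3.76 in the control line. TNRC6C lay within 2-fold in all 4 comparisons, at 1235 and 1510.2 in the stimulated and solvent shIKKE line, and 2296 and 1941 in the stimulated and solvent control line.

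LINC00467 read 623 with stimulation and 131 with solvent in the shIKKE line (log2 2.14), and 374 with stimulation and 107 with solvent in the control line (log2 1.68), and its second probe set gave log2 1.56 in the shIKKE line and 1.95 in the control line. LINC00597 read 228 stimulated against 36.8 with solvent in the shIKKE line, and 188 stimulated against 46.3 with solvent in the control line (log2 2.25 in the shIKKE line and 1.74 in the control line). LINC02591 read 269 with stimulation and 46.1 with solvent in the shIKKE line (log2 2.23), and 156 with stimulation and 30.6 with solvent in the control line (log2 1.93). These intergenic transcripts have no assigned function here, and LINC00597 and LINC02591 were dim on both solvent arrays. PGM5-AS1 read 315 stimulated against 114 with solvent in the shIKKE line, and 371 stimulated against 76.6 with solvent in the control line (log2 1.36 in the shIKKE line and 2.09 in the control line). FAM131B-AS2, whose window holds AP-1, EGR and NF-κB matches, read 843 with stimulation and 245 with solvent in the shIKKE line (log2 1.73), and 933 with stimulation and 339 with solvent in the control line (log2 1.42). EMC3-AS1, whose window holds a pair of CRE matches, read 320.1 stimulated against 128 with solvent in the shIKKE line, and 356 stimulated against 169 with solvent in the control line (log2 1.23 in the shIKKE line and 1.02 in the control line). In FAM131B-AS2 and EMC3-AS1 both stimulated values lay above both solvent values, which their choice as 2-fold higher in both lines made likely.

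RUSC1-AS1, the brightest of the rest, read 1152 with stimulation and 559 with solvent in the shIKKE line (log2 1.02), and 710.2 with stimulation and 271 with solvent in the control line (log2 1.35). YWHAH-AS1 read 221 stimulated against 40.3 with solvent in the shIKKE line, and 162 stimulated against 70.2 with solvent in the control line (log2 2.11 in the shIKKE line and 1.06 in the control line). WARS2-AS1, beside the gene of the mitochondrial tryptophanyl-tRNA synthetase, read 477 with stimulation and 195 with solvent in the shIKKE line (log2 1.23), and 492 with stimulation and 136 with solvent in the control line (log2 1.75). In each of these 3 both stimulated values lay above both solvent values. LINC01355 read 295 stimulated against 86.4 with solvent in the shIKKE line, and 324 stimulated against 72.6 with solvent in the control line (log2 1.62 in the shIKKE line and 1.96 in the control line). LINC01296 read 535 with stimulation and 192 with solvent in the shIKKE line (log2 1.41), and 568 with stimulation and 178 with solvent in the control line (log2 1.60). SSBP3-AS1 read 502 stimulated against 212 with solvent in the shIKKE line, and 489 stimulated against 159.8 with solvent in the control line (log2 1.19 in the shIKKE line and 1.53 in the control line). With stimulation the shIKKE line minus the control line was log2 -0.13 for LINC01355, -0.09 for LINC01296 and 0.04 for SSBP3-AS1. LINC01963, LINC01138, LINC00537 and the microRNA host MIR570HG completed the 22. Apart from those that the rule for named genes gives, the 22 are named because they make up the count, after their values were seen.

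**Figure D2:**
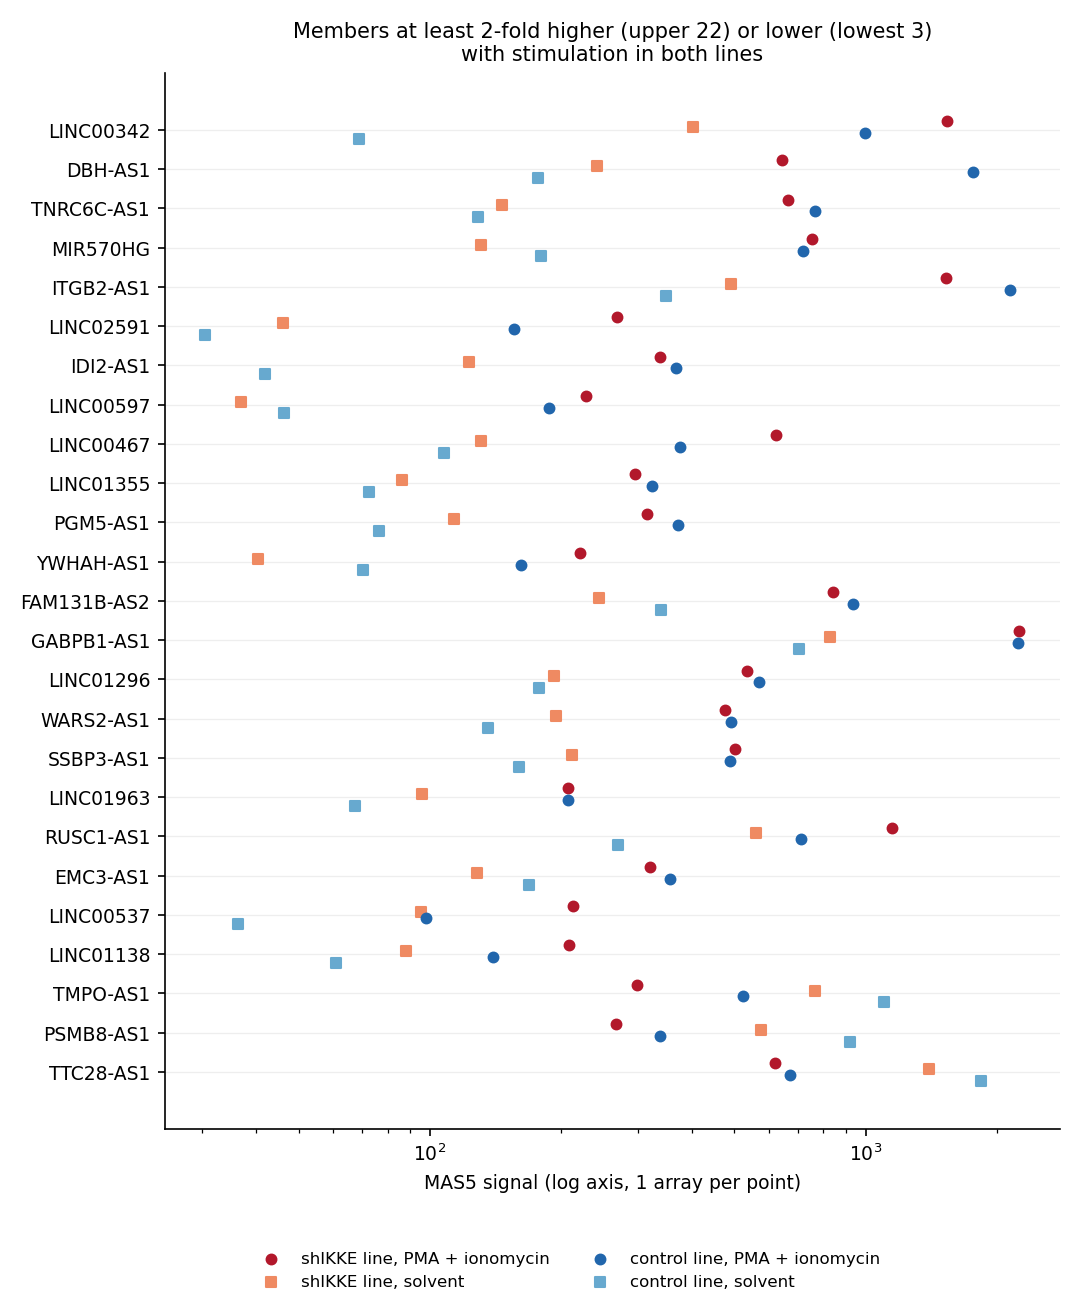
MAS5 signals on a log axis, 1 point per array, of the 22 transcripts at least 2-fold higher with stimulation in both lines and the 3 at least 2-fold lower (lowest lines of the plot). In the 22, stimulated arrays (circles) lie to the right of the solvent arrays of the same line (squares). For LINC00537 the stimulated control line read 97.9, close to the solvent value of 95.6 in the shIKKE line.

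The 3 transcripts lower in both lines were TTC28-AS1, TMPO-AS1 and PSMB8-AS1, of which TTC28-AS1 and PSMB8-AS1 were named after their values were seen. TTC28-AS1 read 619 with stimulation and 1398 with solvent in the shIKKE line (log2 -1.16), and 669 with stimulation and 1835 with solvent in the control line (log2 -1.44). TMPO-AS1 lies head to head within 1 kb with the gene of the thymopoietin proteins of the nuclear lamina. It read 299 stimulated against 763 with solvent in the shIKKE line (log2 -1.31). In the control line it read 524 stimulated against 1103 with solvent (log2 -1.05). PSMB8-AS1 lies head to head within 1 kb with an immunoproteasome subunit gene. It read 267 with stimulation and 574 with solvent in the shIKKE line (log2 -1.06). In the control line it read 338 with stimulation and 921 with solvent (log2 -1.41). In each of the 3 transcripts both stimulated values lay below both solvent values, while TMPO and PSMB8 lay within 2-fold. TMPO read 11996 and 11488 in the stimulated and solvent shIKKE line, and 13097 and 12802 in the stimulated and solvent control line. PSMB8 read 2923 and 3714 in the stimulated and solvent shIKKE line, and 2738 and 3613 in the stimulated and solvent control line.

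The limma fit of line and stimulation over all 4 arrays has 1 residual degree of freedom, the difference between the lines' responses, and takes most of its error from the other genes. For the average effect of stimulation it called 0 of the 188 transcripts at a Benjamini-Hochberg adjusted p of at most 0.05, against 0.00729% of 13717 genes (1 gene). The lowest adjusted p among the 188 was 0.113, for TNRC6C-AS1 (average log2 change 2.26, SE 0.26). At an unadjusted p under 0.05 the limma count was 65 of 188 transcripts (34.6%), against 13.7% of genes. The 13717 genes had only to reach a highest signal of 56.4, against 200 for the 188, so they include dimmer genes. The call depended on the pseudocount, the constant added before the log. With a pseudocount of 50 in place of 14.1, limma called 26 of the 188 (13.8%), against 3.46% of genes, with adjusted p from 0.00076 to 0.043. Of these 26, 21 were higher and 5 lower. The 21 held 18 of the 22 transcripts that were higher in both lines, and the 5 held all 3 that were lower in both. Both lists use the same 4 arrays, and the limma effect averages the changes of both lines. This overlap was thus largely fixed in advance and is no separate support. LINC00342 had an average log2 change of 2.48 (SE 0.31) and an adjusted p of 0.0008 in that limma fit.

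Among the intergenic transcripts, 13 of 50 were at least 2-fold higher and 1 lower in the shIKKE line (median log2 0.45), and 12 higher and 3 lower in the control line (median 0.15). Among the antisense transcripts, 16 of 128 were higher and 9 lower in the shIKKE line (median -0.09), and 21 higher and 14 lower in the control line (median -0.15). As shares, 26.0% of the intergenic and 12.5% of the antisense transcripts were higher in the shIKKE line, against 5.38% of all genes and 11.68% of those with a highest signal of 200 to 400 (median 0.09). In the control line 24.0% of the intergenic and 16.41% of the antisense transcripts were higher, against 5.69% of all genes and 8.69% of those at 200 to 400 (median -0.11). In the shIKKE line 2.0% of the intergenic and 7.03% of the antisense transcripts were lower, against 1.44% of all genes and 3.06% at 200 to 400. The same shares in the control line were 6.0% and 10.94%, against 4.81% and 7.05%. LINC00528 was the lower intergenic one in the shIKKE line, at 118 with stimulation and 316 with solvent in the shIKKE line (log2 -1.32), and 152 with stimulation and 293 with solvent in the control line (log2 -0.89).

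The microRNA hosts differed in direction. MIR570HG, the host of miR-570, had the highest upward log2 change of the 188 with stimulation in the shIKKE line. It read 753 with stimulation and 131 with solvent in the shIKKE line (log2 2.40), and 718 with stimulation and 179.6 with solvent in the control line (log2 1.92). Both stimulated values lay far above both solvent values. MIR210HG, the host of the hypoxia-induced miR-210, had the lowest log2 change of the 188 in the control line. It read 15.8 with stimulation and 39.4 with solvent in the shIKKE line (log2 -0.84), and 6.58 with stimulation and 268 with solvent in the control line (log2 -3.77). It was thus above 200 on the control solvent array alone, and the other 3 values lay below 56.4, the median of all signals. MIR550A3HG read 446 stimulated against 312 with solvent in the shIKKE line, and 497 stimulated against 469 with solvent in the control line (log2 0.50 in the shIKKE line and 0.08 in the control line). MIR924HG read 119 with stimulation and 112 with solvent in the shIKKE line (log2 0.09), and 71.9 with stimulation and 200.2 with solvent in the control line (log2 -1.32), again with its highest value on the control solvent array. Of 36 microRNA host symbols on the array these 4 reached 200.

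Among the genes of proteins that make and use microRNAs, 15 of 21 listed symbols, 4 of which are older names of Argonaute genes, were measured. AGO2, the Argonaute that can slice its targets, was at least 2-fold higher in both lines, at 1956 with stimulation and 795 with solvent in the shIKKE line (log2 1.28), and 1735 with stimulation and 718 with solvent in the control line (log2 1.26). The other 14 lay within 2-fold with stimulation in each line, as did 9123 of the 9791 genes in the shIKKE line and 8763 in the control line. DICER1, the enzyme that cuts the hairpin, read 3529 stimulated against 1951 with solvent in the shIKKE line, and 2894 stimulated against 2147 with solvent in the control line (log2 0.85 in the shIKKE line and 0.43 in the control line). AGO4 was the only one past 2-fold between the lines, at 769 in the shIKKE line against 1840.4 in the control line with solvent (log2 -1.24). The median log2 change of the list was -0.18 in the shIKKE line and 0.22 in the control line.

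None of the 5 small nucleolar RNA hosts passed 2-fold in any of the 4 comparisons. In each comparison most of the 9791 genes did not either. SNHG17 read 4934 with stimulation and 5324 with solvent in the shIKKE line (log2 -0.11), and 4297 with stimulation and 3916 with solvent in the control line (log2 0.13), with no separation by treatment. SNHG32 read 3101 stimulated against 4413 with solvent in the shIKKE line, and 3492 stimulated against 5759.7 with solvent in the control line (log2 -0.51 in the shIKKE line and -0.72 in the control line). SNHG19 read 2798 with stimulation and 4319.9 with solvent in the shIKKE line (log2 -0.62), and 3163 with stimulation and 4111 with solvent in the control line (log2 -0.38). These hosts, whose starts hold a pyrimidine tract, had both stimulated values below both solvent values. SNHG33 read 300.1 stimulated against 465 with solvent in the shIKKE line, and 221 stimulated against 329 with solvent in the control line (log2 -0.61 in the shIKKE line and -0.54 in the control line). SNHG33, whose RefSeq start holds no such tract, likewise had both stimulated values below both solvent values. GAS5, a transcript of growth-arrested cells that is degraded when translated, read 329 with stimulation and 179 with solvent in the shIKKE line (log2 0.82), and 299 with stimulation and 165 with solvent in the control line (log2 0.81), by 1 dim probe set. Its 4 other probe sets, and all 9 of NEAT1, carry several symbols and are not named or valued here.

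The RNA of genes for proteins around these transcripts showed no 2-fold difference. This held in all 4 comparisons for the 11 measured of 14 snoRNP protein genes and the 8 measured of 14 nonsense-mediated decay genes. It held as well for the 10 measured of 11 paraspeckle protein genes. In that order, the median log2 changes with stimulation were -0.24, -0.11 and 0.05 in the shIKKE line. In the control line they were 0.07, 0.15 and 0.37. Most genes lay within 2-fold as well. Of the 9791 these were 9123 with stimulation in the shIKKE line and 8763 in the control line. Between the lines they were 9573 with stimulation and 9130 with solvent.

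MALAT1 was the brightest transcript and was covered by 12 probe sets. The brightest read 14749 with stimulation and 10779 with solvent in the shIKKE line (log2 0.45), and 13415 with stimulation and 7694 with solvent in the control line (log2 0.80). All 12 had a higher signal with stimulation in both lines, from log2 0.45 to 2.95 in the shIKKE line and from 0.33 to 3.02 in the control line. In the shIKKE line 6 of the 12 were at least 2-fold higher, and in the control line 9. The next brightest read 8913 stimulated against 5431 with solvent in the shIKKE line, and 9207 stimulated against 1727 with solvent in the control line (log2 0.71 in the shIKKE line and 2.41 in the control line), so probe sets of 1 transcript gave different sizes. With solvent 11 of 12 were higher in the shIKKE line than in the control line, from log2 -0.87 to 1.65, 5 of them at least 2-fold. With stimulation 6 of 12 were higher in the shIKKE line, from -0.44 to 0.85. The 12 probe sets read the same 4 RNA samples and are not replicates.

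**Figure D3:**
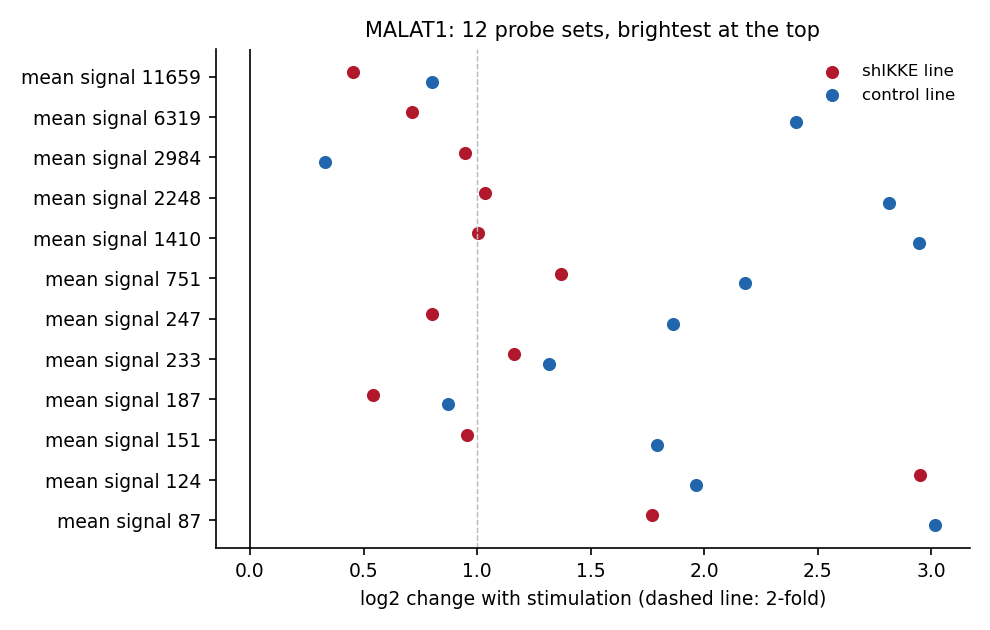
Each line of the plot is 1 of 12 MALAT1 probe sets, ordered by mean signal from 11659 at the top to 87.0 at the bottom, with its log2 change with stimulation in the shIKKE line (red) and the control line (blue). All points lie above 0; the brightest probe set read 0.45 in the shIKKE line and 0.80 in the control line.

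Antisense transcripts were paired by name with the gene whose symbol they carry. For 97 of the 128 that gene was measured at 200 or more, and for 31 it was not. Of the 97 pairs, 41 lie head to head within 1 kb in RefSeq, 32 lie on opposite strands in another arrangement, and for 24 the strands were not looked up because a partner was not in the table. In the shIKKE line 15 of the 97 antisense transcripts and 9 of the genes were at least 2-fold different with stimulation. Over all 9791 genes 5.38% were higher and 1.44% lower. In 1 pair both partners passed 2-fold, in the same direction. This was HHIP-AS1 with HHIP, which encodes a Hedgehog-binding protein. HHIP-AS1 read 3512 with stimulation and 8466 with solvent in the shIKKE line (log2 -1.27), and 2439.6 with stimulation and 4637 with solvent in the control line (log2 -0.92). HHIP read 1561 with stimulation and 3336 with solvent in the shIKKE line (log2 -1.09), and 1151 with stimulation and 3047 with solvent in the control line (log2 -1.39). In the control line 26 antisense transcripts and 8 genes were at least 2-fold different, against 5.69% of all genes higher and 4.81% lower. In 2 pairs both were in the same direction, GABPB1-AS1 with GABPB1 and ATP8B1-AS1 with ATP8B1. GABPB1 read 1331 stimulated against 1143 with solvent in the shIKKE line, and 1542 stimulated against 756 with solvent in the control line (log2 0.22 in the shIKKE line and 1.01 in the control line). ATP8B1 read 725 with stimulation and 249.6 with solvent in the shIKKE line (log2 1.49), and 599 with stimulation and 274 with solvent in the control line (log2 1.09). ATP8B1-AS1 gave log2 1.37 in the control line and its second probe set 0.11, so that pair rests on 1 probe set. In 1 pair they were opposite. ID2-AS1 read 58.3 with stimulation and 64.0 with solvent in the shIKKE line (log2 -0.11), and 52.9 with stimulation and 229 with solvent in the control line (log2 -1.86). Its partner ID2, which encodes an inhibitor of E-protein transcription factors, read 5520.1 stimulated against 1354 with solvent in the shIKKE line, and 5647 stimulated against 2798 with solvent in the control line (log2 2.02 in the shIKKE line and 1.01 in the control line). The ID2-AS1 difference in the control line rests on its solvent array, the only one of the 4 above 200, while ID2 was higher on both stimulated arrays.

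Across the 97 pairs, Pearson's r between the log2 changes of antisense transcript and gene was 0.10 in the shIKKE line and 0.01 in the control line, and Spearman's rho 0.03 and -0.07. In the 41 pairs whose starts lie head to head within 1 kb in RefSeq, r was 0.17 and 0.05. These describe pairs that share the 4 arrays and their scaling. How many pairs past 2-fold on both sides unrelated genes would give was not tested. Whether each probe set reads only the strand it is named for was not tested.

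**Figure D4:**
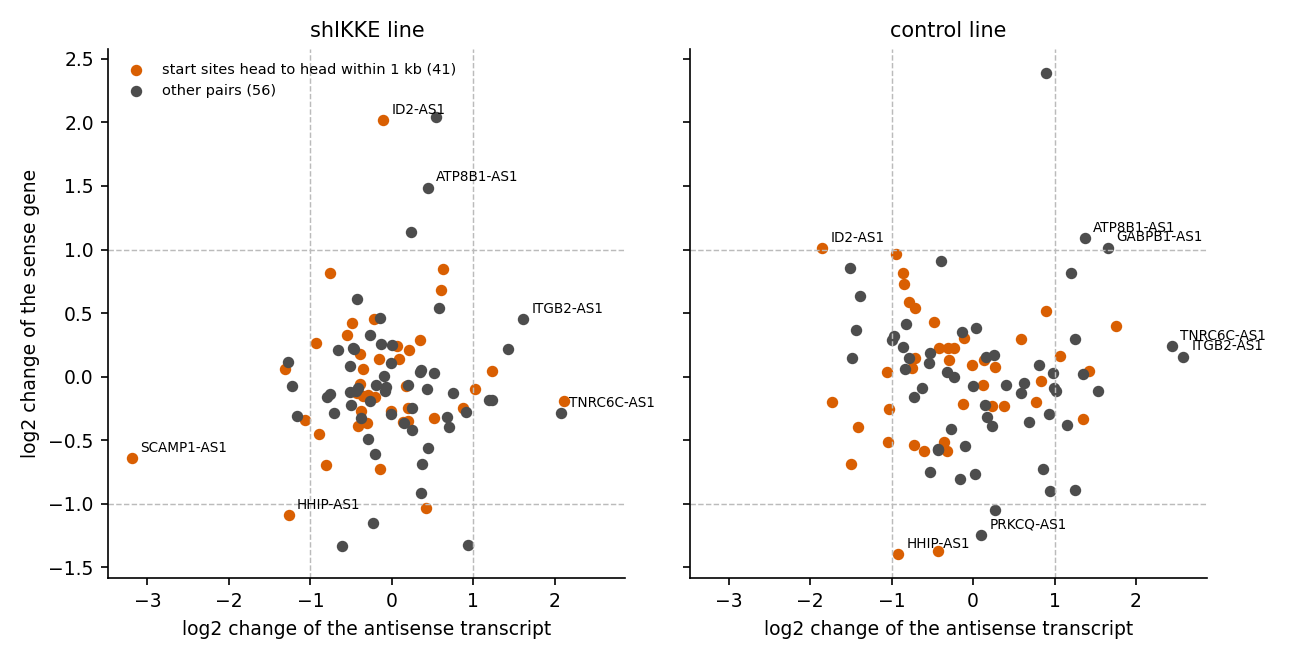
Log2 change with stimulation of 97 antisense transcripts (across) and of the gene each is named after (upward), in the shIKKE line at left and the control line at right. Orange points are the 41 pairs with starts head to head within 1 kb, and dashed lines mark 2-fold. Few points lie past 2-fold on both axes, among them HHIP-AS1 in the shIKKE line and ID2-AS1 in the control line.

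Some transcripts were at least 2-fold lower with stimulation in 1 line alone. SCAMP1-AS1 read 20.1 with stimulation and 298 with solvent in the shIKKE line (log2 -3.19), and 256 with stimulation and 333 with solvent in the control line (log2 -0.36), so that only the stimulated array of the shIKKE line was low. SCAMP1, a gene of vesicle membrane proteins whose start lies beside it, lay within 2-fold, at 1839 and 2880.0 in the stimulated and solvent shIKKE line, and 1718 and 2458 in the stimulated and solvent control line. LCT-AS1 read 325 stimulated against 928 with solvent in the shIKKE line, and 737 stimulated against 1191 with solvent in the control line (log2 -1.48 in the shIKKE line and -0.68 in the control line). RHPN1-AS1 read 109 with stimulation and 284 with solvent in the shIKKE line (log2 -1.28), and 169.8 with stimulation and 233 with solvent in the control line (log2 -0.43). In the control line alone ZEB1-AS1 was lower, and it lies head to head within 1 kb with the gene of the repressor ZEB1. ZEB1-AS1 read 429.9 stimulated against 553 with solvent in the shIKKE line (log2 -0.35). In the control line it read 385 stimulated against 1319 with solvent (log2 -1.74). ZEB1 itself lay within 2-fold, at 6361 and 7075 in the stimulated and solvent shIKKE line, and 4991 and 5733 in the stimulated and solvent control line. HDAC4-AS1 read 153 with stimulation and 212 with solvent in the shIKKE line (log2 -0.43), and 119.9 with stimulation and 367 with solvent in the control line (log2 -1.51). ZNF436-AS1 read 176 stimulated against 128 with solvent in the shIKKE line, and 131 stimulated against 395 with solvent in the control line (log2 0.42 in the shIKKE line and -1.50 in the control line). In ZEB1-AS1, HDAC4-AS1 and ZNF436-AS1 the control solvent array was the high one. That array was the highest of the 4 for 64 of the 188 transcripts, against 39 to 45 for the others, and the lowest for 65, against 38 to 43. GNAS-AS1, from the imprinted locus of a G protein subunit, read 274 with stimulation and 228 with solvent in the shIKKE line (log2 0.25), and 76.4 with stimulation and 240.4 with solvent in the control line (log2 -1.49), low on the stimulated control array alone.

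Others were higher in the shIKKE line alone at the 2-fold limit. SDCBP2-AS1 read 337 stimulated against 52.8 with solvent in the shIKKE line, and 279 stimulated against 141 with solvent in the control line (log2 2.39 in the shIKKE line and 0.92 in the control line). PITX1-AS1 read 226 with stimulation and 36.4 with solvent in the shIKKE line (log2 2.25), and 92.4 with stimulation and 103 with solvent in the control line (log2 -0.13). In both the shIKKE solvent array was the lowest. Each control-line response and each solvent comparison of the lines uses the same control solvent array, and each shIKKE response and solvent comparison the same shIKKE solvent array, so these values are not independent of each other. With the shIKKE solvent array as the baseline of the stimulated control array, a comparison added after the values were seen, 30 transcripts were at least 2-fold higher and 10 lower, against 34 and 19 with its own solvent array. Over all genes the same change of baseline gave 5.68% higher and 1.98% lower, against 5.69% and 4.81%.

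Between the lines fewer transcripts differed. With stimulation, 5 passed 2-fold upward in the shIKKE line over the control line, against 1.18% of genes, and 4 passed it downward, against 1.04%. With solvent 7 were higher, against 2.22%, and 13 lower, against 4.53%. As shares of the 188 these were 2.66% and 2.13% with stimulation and 3.72% and 6.9% with solvent. Of the 1404 genes with a highest signal between 200 and 400, 4.27% were higher and 2.42% lower with stimulation. With solvent 3.85% of them were higher and 8.4% lower. All 5 transcripts higher with stimulation lay in that signal range. The median log2 difference was 0.04 with stimulation and -0.00 with solvent, and over all genes -0.01 with stimulation and -0.05 with solvent. Across both treatments 1 was higher, against 0.235% of genes, and 0 were lower, against 0.429%. In the limma fit the average effect of the line had 0 of 188 transcripts at an adjusted p of at most 0.05, against 0% of 13717 genes, and the lowest adjusted p was 0.585. At an unadjusted p under 0.05 limma had 13 of 188 (6.9%), against 7.16% of genes. The share of 2-fold differences that were higher moved with the scaling. With stimulation it was 55.6%, and 41.7% after quantile normalization (5 higher, 7 lower) or 37.5% after cyclic loess (3 higher, 5 lower). With solvent it was 35.0%, and after quantile normalization 8 were higher and 8 lower.

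The transcript higher in both treatments was LINC00537, at 213 in the shIKKE line against 97.9 in the control line with stimulation (log2 1.02) and 95.6 in the shIKKE line against 36.3 in the control line with solvent (log2 1.12). It did not reach 400 on any array. The others higher with stimulation were GNAS-AS1 (log2 1.67), PITX1-AS1 (1.17), LINC02175 (1.16) and PPP3CB-AS1 (1.02). PPP3CB-AS1, antisense to a calcineurin catalytic subunit gene, read 238 in the shIKKE line against 110.2 in the control line with stimulation and 163 in the shIKKE line against 79.5 in the control line with solvent (log2 0.92). PPP3CB read 2658 in the shIKKE line against 2833 in the control line with stimulation and 2604 in the shIKKE line against 2959 in the control line with solvent. The 4 lower with stimulation were SCAMP1-AS1 (log2 -2.98), DBH-AS1 (-1.44), LINC02273 (-1.30) and LCT-AS1 (-1.15). LINC02273 read 319 in the shIKKE line against 805 in the control line with stimulation, and 421 in the shIKKE line against 735 in the control line with solvent (log2 -0.78).

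With solvent the largest difference upward was LINC00342, at 401 in the shIKKE line against 68.8 in the control line (log2 2.32). Its other 2 probe sets gave -0.01 and 1.11, so the size of this difference depended on the probe set. IDI2-AS1 (log2 1.29), LINC02987 (1.22), LINC00537 (1.12), RFX5-AS1 (1.10), NOP14-AS1 (1.05) and RUSC1-AS1 (1.01) followed. RFX5-AS1, beside the gene of a regulator of MHC class II, read 634 in the shIKKE line against 289 in the control line with solvent. With stimulation it read 549 in the shIKKE line against 504 in the control line. RFX5 read 4245 in the shIKKE line against 4924 in the control line with solvent. The lowest was MIR210HG, at 39.4 in the shIKKE line against 268 in the control line (log2 -2.40). NUTM2B-AS1 (-1.67), ID2-AS1 (-1.64), ZNF436-AS1 (-1.53), ZEB1-AS1 (-1.23), SDCBP2-AS1 (-1.22) and PITX1-AS1 (-1.21) were next. A second NUTM2B-AS1 probe set gave log2 0.48, the opposite direction. ID2 was lower as well, at 1354 in the shIKKE line against 2798 in the control line (log2 -1.04). Across the pairs this was 1 of 2 in which antisense transcript and gene differed at least 2-fold the same way with solvent, the other being NINJ2-AS1 (log2 -1.04) with NINJ2 (-2.22).

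**Figure D5:**
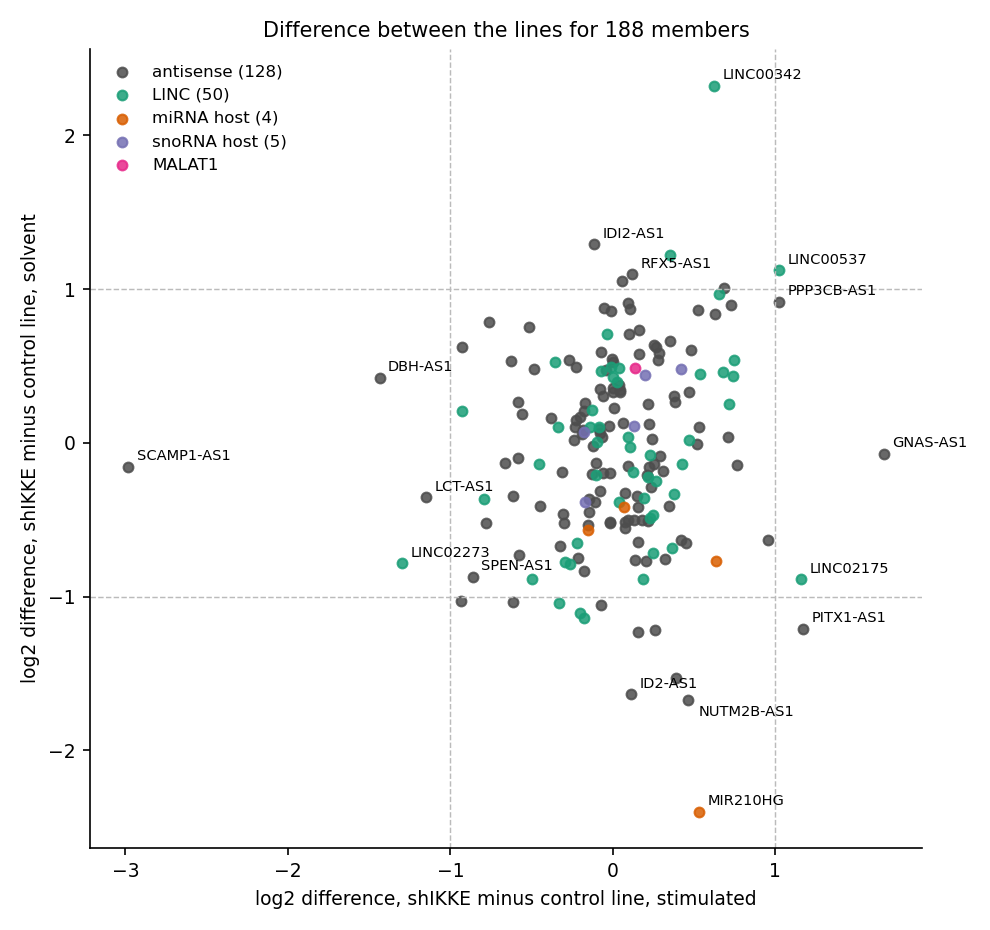
Each point is 1 of the 188 transcripts, with the log2 difference of the shIKKE line minus the control line with stimulation (across) and with solvent (upward). Dashed lines mark 2-fold. LINC00537 is the only point past 2-fold upward in both and PITX1-AS1 is past it in opposite directions, while LINC00342 and MIR210HG are past it with solvent alone and SCAMP1-AS1 with stimulation alone.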

How the data were processed

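Total RNA of 4 samples was labelled with biotin from 6 ug, per the labels' protocols, and hybridised to 4 single-colour arrays. The deposited values are linear intensities, 1 for each probe set on each array, made by the authors with MAS5 per the submitters' processing notes. Neither its version nor its scaling target is given in the sources used here. The mean of each array, trimmed by 2% at both ends, was 500.1, so the authors had brought them to 1 scale, while medians ran from 48.8 to 69.1. MAS5 subtracts mismatch probes, which spreads low signals, and detection calls were not used. The number of arrays limits the precision.

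Groups came from the sample titles. The treatment text in the labels is the same for all 4 samples, so the 2 whose titles say induce were taken as stimulated and the other 2 as the solvent groups of the design text. Gene names came from the platform annotation: 41091 of 54675 probe sets had 1 symbol, 1801 several and 11721 none, with 62 array controls set aside. Of the 188 members 186 were in the RefSeq table of GRCh38.p14, 15 used a probe set of the cross-hybridising _x_at form, and 39 had several probe sets at 200. Matching by name, 140 probe sets with several symbols, 63 of them at 200, were counted and not named.

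Values are log2 of the signal plus 14.1, the 25th percentile of all signals. Differences of at least 2-fold were counted, with no test. Average effects came from limma 3.58.1 under R 4.3.3 (lmFit, eBayes, two-sided, Benjamini-Hochberg adjusted p over 13717 genes whose highest signal reached 56.4), and the limma step was tested on simulated data. Other steps used Python 3.11.15, pandas 2.3.3, numpy 2.4.6, scipy 1.17.1 and matplotlib 3.10.9. Alternatives were other pseudocounts, quantile and cyclic loess normalization, the median of a gene's probe sets, a minimum of 400, no filter, no _x_at probe sets, and the shIKKE solvent array as the control line's baseline.

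The members, lists and tests were chosen with earlier results of these data known. Named were MALAT1, NEAT1, GAS5, the SNHG and MIR host members, the 6 highest and 6 lowest members past 2-fold in each comparison, the genes whose symbols named antisense members carry or members past 2-fold, members near the limit of 200, and up to 3 genes of each list with the largest change.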

Additional observations from a re-analysis of the deposited data

Results flagged for a closer look

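For 2 transcripts the stimulated array lay at least 2-fold above the solvent array in the shIKKE line and at least 2-fold below it in the control line. They were picked from the members by these values, and the share of all genes that meet both limits was not counted. With 1 array per group the difference between the lines was not tested. NUTM2B-AS1 read 479.5 and 229.8 in the shIKKE line with stimulation and solvent, and 344 and 763 in the control line (log2 1.02 and -1.12, a difference of 2.14). A second NUTM2B-AS1 probe set was higher in both lines (log2 1.67 and 2.06). LINC02175 read 326 and 151 in the shIKKE line with stimulation and solvent, and 138 and 292 in the control line (log2 1.04 and -1.01, a difference of 2.05).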

How the results depend on the processing

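No paired analysis was possible because each group has 1 array and so no replicate numbers to match, and no replicate could be left out for the same reason. The limma fit does take line and stimulation together, so its stimulation effect is the average within the lines. Counts are of the 188 members at least 2-fold different, and the baseline and _x_at alternatives were chosen after seeing the data. For the 40 named members, 1011 of 1068 values under an alternative stayed on the same side of 2-fold, 53 crossed 2-fold without a called value turning sign and 4 called values turned direction. The values that turned were all for stimulation in the control line. NUTM2B-AS1 gave 0.47 with the median of its probe sets, and with the shIKKE solvent array as baseline NUTM2B-AS1 gave 0.55, ZNF436-AS1 0.033 and LINC02987 -0.15. That baseline also left 10 members lower in the control line, against 19. A pseudocount of 50 by construction shrinks dim differences. It left 2 members higher between the lines with stimulation (1.06%), against 0.868% of all genes. With solvent 3 were higher (1.60%) and 7 lower (3.72%), against 1.74% and 3.54%. Limma called 26 members for stimulation in that setting, against 3.46% of genes. No member was called for either average effect under the other limma alternatives, no filter included. Quantile normalization gave 16 lower (8.5%) with stimulation in the shIKKE line, against 2.4% of all genes. Between the lines it gave 7 lower (3.7%) with stimulation and 8 lower (4.3%) with solvent, against 1.2% and 3.6%. Cyclic loess gave 3 higher (1.6%) between the lines with stimulation, against 1.12% of all genes. The cause of these shifts with scaling was not tested. A minimum of 400 kept 102 members, so fewer were counted. With stimulation 15 were higher (14.7%) and 6 lower (5.9%) in the shIKKE line, against 4.3% and 1.2% of the 8390 genes kept. In the control line 18 were higher (17.6%) and 10 lower (9.8%), against 5.2% and 4.4%. Between the lines 0 were higher and 3 lower (2.9%) with stimulation, against 0.667% and 0.81% of those genes. With solvent 3 were higher (2.9%) and 4 lower (3.9%), against 1.94% and 3.89%. Signals near background limit the dim members most.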

Other observations

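Probe sets that match by name but carry several symbols form a set of 63 at 200 or more, which cannot be tied to 1 gene. The 63 were not reduced to 1 probe set per gene, as the 188 and the 9791 were. Several of them can thus read the same transcript, and their shares are not shares of genes. With stimulation 6 of them were at least 2-fold higher (9.5%) and 1 lower (1.6%) in the shIKKE line, against 5.38% and 1.44% of the 9791 genes. In the control line 14 were higher (22.2%) and 2 lower (3.2%), against 5.69% and 4.81%. Between the lines 0 were higher and 3 lower (4.8%) with stimulation, against 1.18% and 1.04% of genes. With solvent 8 were higher (12.7%) and 2 lower (3.2%), against 2.22% and 4.53%. In none of the 63 was the response at least 2-fold larger in the shIKKE line than in the control line, and in 10 it was at least 2-fold smaller. These were 0% and 15.9% of the 63. Among the 188 members the counts were 16 (8.5%) and 9 (4.8%), and 5.56% and 2.33% of the 9791 genes lay past the same limits. Both sets use the same 4 arrays, and the difference between them was not tested.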
